A study of Drosophila melanogaster with 42 samples.

Results

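In Drosophila melanogaster males, adult heads and thoraces were profiled over life, and 16 of 9904 measured genes (0.1616%) had higher log2 ratios in middle age than before and after it in both genotypes. The members were chosen by their measured values: a gene entered when its mean over the arrays of days 30, 40 and 50 exceeded both the mean of days 5 and 10 and the mean of days 70 and 80 by 0.25 or more on the log2 scale, in each genotype. These 3 age windows are called young (days 5 and 10), middle-aged (days 30, 40 and 50) and old (days 70 and 80), and the 4 differences of the rule are called margins. The selection used all arrays except those of day 20, so the rise to middle age and the fall after it are given as descriptions, with no test.

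The study compared Indy206 flies, heterozygous for the Indy206 allele with the wild-type Canton-S chromosome opposite (Indy206/CS), with controls of the matched line 2216, likewise heterozygous over Canton-S (2216/CS). All flies were males on standard food, aged 5, 10, 20, 30, 40, 50, 70 or 80 days, and each array holds RNA pooled from 15 of them. There were 21 arrays of Indy206 and 21 of controls in 16 groups of 2 or 3, so single groups are measured with low precision. Indy206 had 4 young, 2 day 20, 9 middle-aged and 6 old arrays, and controls had 4, 3, 8 and 6. Indy encodes a citrate transporter, and lowered Indy activity is known for extending fly life. Every array set the Cy5-labelled sample against a Cy3-labelled common reference, a pool of control RNA of all ages. A value is therefore a log2 ratio of sample over reference, likely in that direction, and it can be compared between arrays for a gene but not as a level between genes.

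Known roles differ among the members, and lipid handling, mitochondrial functions, membrane transport and import of RNA polymerase II are among them. These roles are background knowledge, and no shared theme was tested. Flies store fat mainly in the fat body, where fatty acids are activated to acyl-CoA, desaturated and joined to glycerol or sterols, and parts of that tissue lie in the head and thorax. Mitochondria have ribosomes of their own for the few proteins their genome encodes, and they host oxidation steps of one-carbon metabolism. Of the 16 members, 9 are known by a CG number alone, every member rests on 1 spot, and all 16 are annotated as protein coding.

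The arrays were checked against the labels first. The lowest correlation between any pair of arrays over all spots was 0.514. The Indy transcript lay between -1.62 and -0.67 on Indy206 arrays (median -1.12) and between -0.49 and 0.11 on control arrays (median -0.26), with no overlap. The median of 5 of 11 listed photoreceptor markers was above 0 on 42 of 42 arrays (0.32 to 1.3), that of 6 of 8 muscle markers on 38, and that of 3 of 6 neuronal markers on 33. Markers of the abdomen were low against the reference, the median of 10 of 12 accessory gland genes on 42 arrays (-4.25 to -1.42) and that of 5 of 12 testis genes on 38 (-1.9 to 0.215). The midgut median was below 0 on 41 arrays (-2.03 to 0.177). Fat body markers varied from -1.38 to 1.22 and were above 0 on 25 arrays. The median of 5 of 9 ovary genes was above 0 on 28 arrays (-0.245 to 0.202), which does not decide the sex label. Arrays differed in how closely they followed the others. The median correlation with the other arrays was lowest for Indy206 day 5, at 0.624 and 0.607, followed by control day 20 replicate 2 (0.674) and control day 5 replicate 3 (0.681). Control day 30 replicate 1 (0.719) correlated less than its sister arrays did (0.827 and 0.849). The day 5 arrays enter the young mean of every member, and the set without day 5 is given at the end.

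The label of a middle-aged peak did not describe every member. Over all 8 ages, the highest day mean of a member fell on day 30, 40 or 50 for 12 members in Indy206 and for 12 in controls. The rule asks for a high mean over these days and so favours them, and the counts are a description, not a check. In Indy206 the highest mean was at day 10 for 1 member, day 20 for 3, day 30 for 9, day 40 for 2 and day 50 for 1. In controls it was at day 10 for 2, day 20 for 2, day 30 for 5, day 40 for 2 and day 50 for 5, and 7 members had the same highest day in both genotypes. Exceptions in both genotypes were CG9988, highest at day 10, and Desat1, highest at day 20, and CG18537 was highest at day 10 in controls. The set is thus one of higher values in the middle window, and not for each gene a peak within it.

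**Figure D1:**
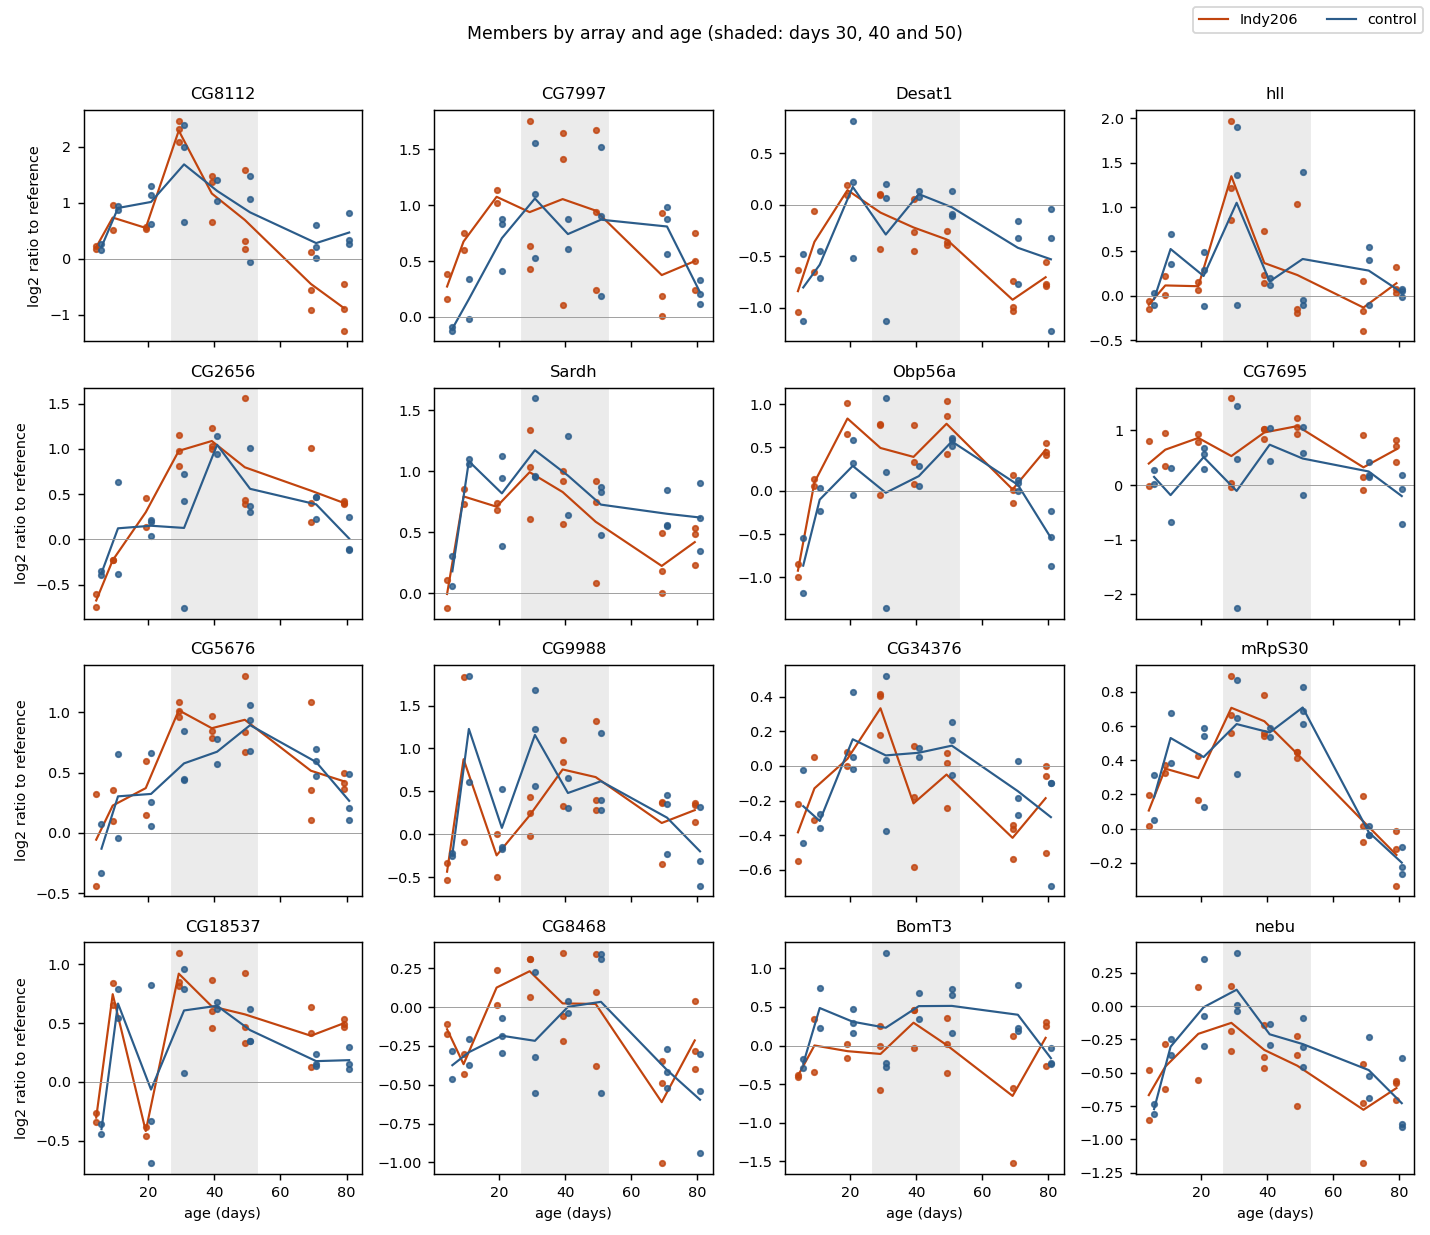
Log2 ratio to the reference (vertical axis) against age in days (horizontal axis) for each of the 16 members; points are arrays, lines join the means of each age, Indy206 is orange and control blue, and days 30, 40 and 50 are shaded. CG8112 stands at 2.09 to 2.47 on the 3 Indy206 arrays of day 30, and control day 30 replicate 1 is the low point for CG7695 at -2.26.

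The size of the rise and fall differed widely between members. Ordered by the smallest of their 4 margins, the set ran from CG8112 (0.69), CG7997 (0.39), Desat1 (0.38) and hll (0.34) to CG8468 (0.26), BomT3 (0.26) and nebu (0.26). The other 9 members had smallest margins between 0.27 and 0.32. Just outside the threshold were CG8043 (0.24), CG3226 (0.24) and Shmt (0.23), so the lower end of the set grades into genes that were not chosen. All 4 margins were above 0 for 696 genes and below 0 for 623, and the same rule turned round, for genes lowest in middle age, was met by 8. Indy206 arrays alone would have chosen 56 genes and control arrays alone 104. Of 9173 spots without a single paired gene, 1 met the rule.

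**Figure D2:**
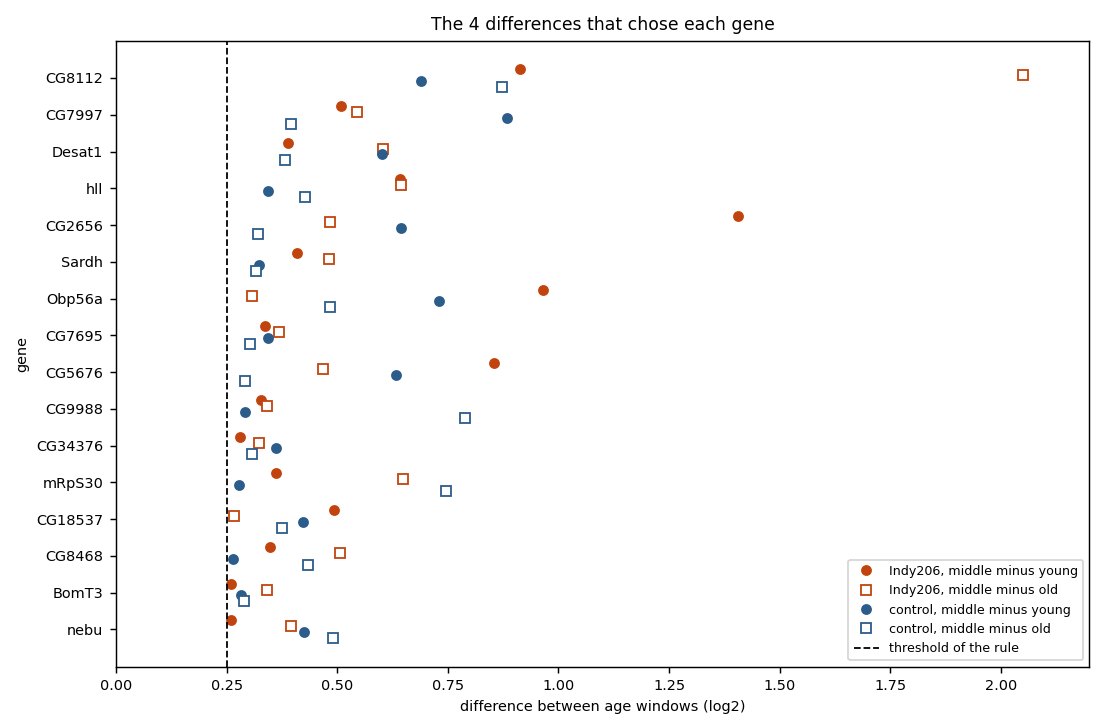
The 4 margins of each member in log2 units (horizontal axis), with genes down the page; filled circles are middle-aged minus young and open squares middle-aged minus old, orange for Indy206 and blue for control, and the dashed line is the threshold of 0.25. The largest margin is that of CG8112 between middle-aged and old Indy206 flies, 2.05, and the next is that of CG2656 between middle-aged and young Indy206 flies, 1.41.

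Of the members that handle lipid, CG8112 had the steepest course. It is the fly homologue of sterol O-acyltransferase, the enzyme that joins sterols to fatty acids for storage. In Indy206 flies CG8112 stood at 0.23 and 0.18 on the day 5 arrays and at 0.96 and 0.51 at day 10. Its middle-aged Indy206 arrays ran from 0.17 to 2.47 (median 1.48, n = 9), and its old ones from -1.29 to 0.12 (median -0.74, n = 6). In controls it stood at 0.26 and 0.16 at day 5 and at 0.94 and 0.87 at day 10, with middle-aged arrays from -0.066 to 2.40 (median 1.24, n = 8) and old ones from 0.020 to 0.81 (median 0.30, n = 6). The 3 Indy206 arrays of day 30, at 2.09, 2.32 and 2.47, were its highest in that genotype, and every middle-aged Indy206 array lay above every old one. Old control arrays overlapped the middle-aged ones. The middle-aged mean was 1.38 ± 0.85 in Indy206 (SD, n = 9) and 1.25 ± 0.77 in controls (SD, n = 8), where the SD includes the differences between the ages pooled.

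Desat1 encodes the delta-9 desaturase, which puts the double bond into fatty acids of membranes, stores and cuticular hydrocarbons. On Indy206 arrays Desat1 stood at -1.04 and -0.64 at day 5, -0.063 and -0.66 at day 10, between -0.45 and 0.11 in middle age (median -0.27, n = 9) and between -1.04 and -0.55 in old flies (median -0.78, n = 6). On control arrays it stood at -0.48 and -1.13 at day 5, -0.72 and -0.45 at day 10, between -1.13 and 0.20 in middle age (median 0.070, n = 8) and between -1.23 and -0.044 in old flies (median -0.32, n = 6). Middle-aged Indy206 arrays were all above the old ones and overlapped the young ones. In controls 7 of 8 middle-aged arrays lay above all young arrays, the exception being day 30 replicate 1 at -1.13, and 5 of 8 above all old ones. At day 20, outside the rule, Desat1 had 0.19 and 0.10 on Indy206 arrays and 0.23, 0.82 and -0.52 on control arrays.

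The gene hll, or heimdall, encodes an enzyme of the very-long-chain acyl-CoA synthetase family, which activates long fatty acids. In Indy206, hll had -0.15 and -0.055 at day 5, 0.23 and 0.0090 at day 10, 1.21, 1.97 and 0.86 at day 30, and between -0.39 and 0.32 in old flies (n = 6). In controls it had -0.10 and 0.032 at day 5, 0.36 and 0.69 at day 10, -0.11, 1.90 and 1.36 at day 30, and between -0.11 and 0.55 in old flies (n = 6). At day 40 it was 0.73, 0.15 and 0.23 in Indy206 and 0.13 and 0.20 in controls. Control day 30 replicate 1, at -0.11, stood apart from the other arrays of that age. The higher values of hll came from few arrays. In controls 3 middle-aged arrays stood at 1.36 or above and the other 5 between -0.11 and 0.20, below the highest young arrays.

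CG7997 is the homologue of lysosomal alpha-galactosidase A, which removes galactose from glycolipids. On Indy206 arrays CG7997 stood at 0.16, 0.38, 0.60 and 0.75 in young flies, between 0.10 and 1.76 in middle age (median 0.94, n = 9) and between 0.0051 and 0.93 in old flies (median 0.37, n = 6). On control arrays the young values were -0.13, -0.087, 0.34 and -0.020, the middle-aged ones 0.19 to 1.56 (median 0.89, n = 8) and the old ones 0.12 to 0.98 (median 0.45, n = 6). All windows overlapped, and in controls 7 of 8 middle-aged arrays lay above all young ones. Its day 50 arrays split: replicate 3 stood at 1.67 in Indy206 and 1.52 in controls, above the other day 50 arrays (0.24 and 0.94 in Indy206, 0.19 and 0.90 in controls). Replicate 3 was also the highest day 50 array of CG8112, at 1.59 in Indy206 and 1.48 in controls, and of hll, at 1.04 and 1.40.

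Among members tied to mitochondria, mRpS30 kept the closest replicates. It encodes a protein of the small subunit of the mitochondrial ribosome. On Indy206 arrays mRpS30 stood at 0.20 and 0.015 at day 5, 0.33 and 0.38 at day 10, between 0.41 and 0.90 in middle age (median 0.56, n = 9) and between -0.33 and 0.19 in old flies (median -0.044, n = 6). On control arrays it stood at 0.32 and 0.052 at day 5, 0.68 and 0.38 at day 10, between 0.32 and 0.87 in middle age (median 0.63, n = 8) and between -0.27 and 0.013 in old flies (median -0.072, n = 6). Middle-aged arrays lay above all old arrays in both genotypes and above all young arrays in Indy206, and day 10 control arrays overlapped the middle-aged ones. mRpS30 was the member with the most such separations, 3 of 4.

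Sardh encodes sarcosine dehydrogenase, a mitochondrial enzyme of one-carbon metabolism. In Indy206, Sardh had a middle-aged median of 0.92 (0.087 to 1.34, n = 9) and an old median of 0.36 (0.00082 to 0.54, n = 6). In controls the middle-aged median was 0.91 (0.48 to 1.60, n = 8) and the old one 0.59 (0.34 to 0.90, n = 6). Day 10 values of Sardh, 0.86 and 0.73 in Indy206 and 1.10 and 1.06 in controls, lay inside the middle-aged range, and its low young mean came from day 5.

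CG5676 is the homologue of mammalian FUNDC1, a receptor for mitophagy on the outer mitochondrial membrane. Its values were 0.33, -0.44, 0.10 and 0.35 in young Indy206 flies, 0.67 to 1.30 in middle-aged ones (median 0.96, n = 9) and 0.11 to 1.08 in old ones (median 0.39, n = 6). In controls they were -0.33, 0.072, 0.65 and -0.045 in young flies, 0.44 to 1.06 in middle-aged ones (median 0.73, n = 8) and 0.10 to 0.70 in old ones (median 0.48, n = 6). All middle-aged Indy206 arrays of CG5676 exceeded all young ones, and 1 old array, day 70 replicate 2 at 1.08, reached into the middle-aged range.

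The transporter members had margins near the threshold. CG8468, of the monocarboxylate transporter family, had middle-aged means of 0.093 ± 0.27 in Indy206 (SD, n = 9) and -0.068 ± 0.37 in controls (SD, n = 8). Its young means were -0.25 ± 0.14 in Indy206 and -0.33 ± 0.11 in controls (SD, n = 4 each), and its old means -0.41 ± 0.34 and -0.50 ± 0.24 (SD, n = 6 each). The sugar transporter gene nebu had middle-aged means of -0.30 ± 0.25 in Indy206 (SD, n = 9) and -0.11 ± 0.26 in controls (SD, n = 8). Young nebu means were -0.56 ± 0.24 in Indy206 and -0.54 ± 0.28 in controls (SD, n = 4 each), and old ones -0.70 ± 0.26 and -0.60 ± 0.27 (SD, n = 6 each). Every window of both genes overlapped its neighbour in both genotypes.

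CG2656 is the homologue of GPN3, a GTPase known from yeast and human cells for bringing RNA polymerase II into the nucleus. In Indy206, CG2656 had -0.60 and -0.75 at day 5, -0.23 and -0.23 at day 10, 0.39 to 1.56 in middle age (median 0.99, n = 9) and 0.19 to 1.01 in old flies (median 0.40, n = 6). In controls it had -0.39 and -0.35 at day 5, 0.63 and -0.39 at day 10, -0.76 to 1.14 in middle age (median 0.57, n = 8) and -0.12 to 0.47 in old flies (median 0.24, n = 6). Middle-aged Indy206 arrays lay above all young ones by a wide gap, and the lowest middle-aged control array was day 30 replicate 1. The margin over young flies was 1.41 in Indy206 and 0.64 in controls by the mean over arrays.

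Secreted proteins were represented by an odorant-binding protein and an immune peptide. Obp56a, which carries hydrophobic odorants in sensory and other fluids, had -1.0 and -0.85 at day 5, 0.058 and 0.14 at day 10, -0.049 to 1.03 in middle age (median 0.76, n = 9) and -0.14 to 0.55 in old flies (median 0.30, n = 6) in Indy206. On control arrays Obp56a had -0.55 and -1.18 at day 5, 0.026 and -0.23 at day 10, -1.36 to 1.07 in middle age (median 0.40, n = 8) and -0.87 to 0.13 in old flies (median -0.12, n = 6). In Indy206 the day 5 arrays were lower than those of every other age, whereas in controls they overlapped day 30 replicate 1, at -1.36, and the old arrays. BomT3 encodes a bomanin, a short peptide induced by the Toll pathway against microbes. Its middle-aged means were 0.066 ± 0.36 in Indy206 (SD, n = 9) and 0.41 ± 0.51 in controls (SD, n = 8), against young means of -0.19 ± 0.36 and 0.13 ± 0.47 (SD, n = 4 each). Old BomT3 means were -0.28 ± 0.69 in Indy206 and 0.12 ± 0.38 in controls (SD, n = 6 each), and all windows overlapped.

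For CG7695, CG9988, CG34376 and CG18537 no role is given here. CG7695 had middle-aged medians of 1.02 in Indy206 (-0.041 to 1.59, n = 9) and 0.53 in controls (-2.26 to 1.45, n = 8). The lowest of these control values is day 30 replicate 1. CG34376 had middle-aged medians of 0.077 in Indy206 and 0.077 in controls, against old medians of -0.35 and -0.14. CG34376 is listed to account for every member, since the naming rule did not reach it.

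CG9988 had 1.83 and -0.087 at day 10 on Indy206 arrays and 1.85 and 0.61 on control arrays, its highest day mean in each genotype, beside middle-aged medians of 0.39 in Indy206 (n = 9) and 0.61 in controls (n = 8). CG18537 did not have a single middle-aged peak either. It had -0.34 and -0.26 at day 5, 0.84 and 0.65 at day 10, -0.38 and -0.46 at day 20 and 0.81, 1.10 and 0.85 at day 30 in Indy206. In controls CG18537 had -0.36 and -0.44 at day 5, 0.79 and 0.54 at day 10, -0.69, -0.33 and 0.83 at day 20 and 0.079, 0.96 and 0.79 at day 30. In Indy206 the arrays of days 5 and 20 were all below 0 and those of every other age above 0, and in controls 1 day 20 array, at 0.83, broke that pattern. Of its 8 middle-aged control arrays, day 30 replicate 1, at 0.079, was the 1 that did not exceed all old ones.

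**Figure D3:**
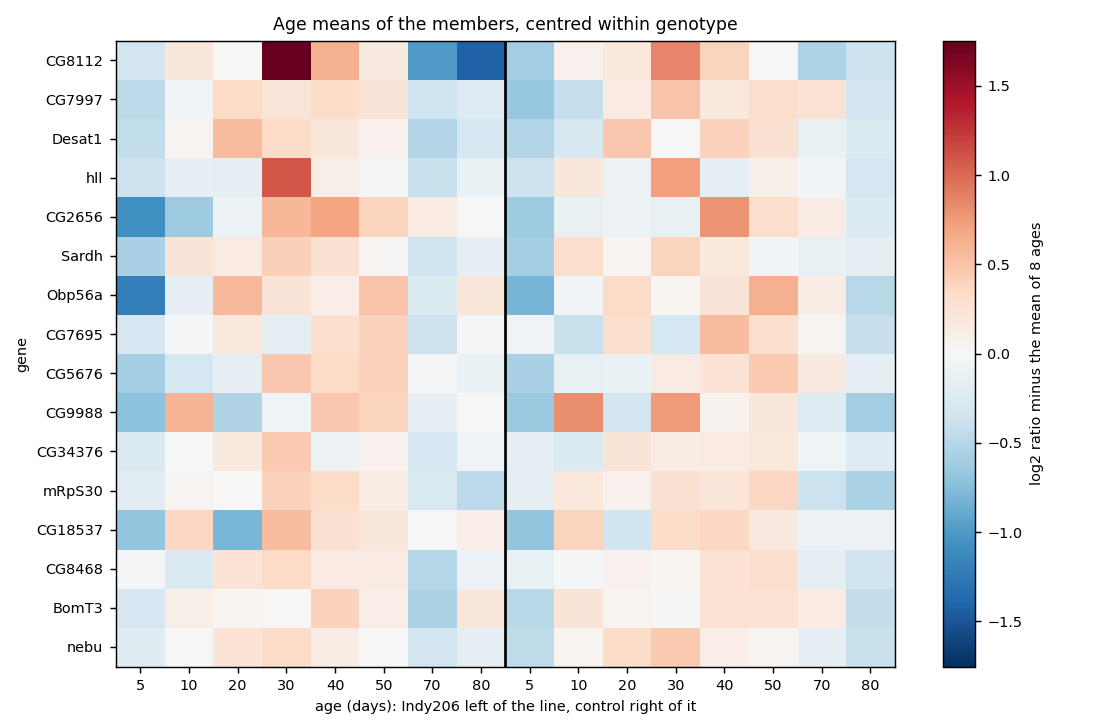
Mean log2 ratio of each member (vertical axis, genes) at each age in days (horizontal axis), less the mean of the 8 ages of that genotype; red is higher and blue lower, with Indy206 left of the line and control right of it. Day 5 is below the genotype's own mean for all 16 members in both genotypes, CG9988 is highest at day 10, and CG18537 is low at days 5 and 20 in both genotypes.

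Separation of single arrays was rare. In Indy206 all middle-aged arrays lay above all young ones for 3 members, CG2656, CG5676 and mRpS30 (1.51% of all genes had this), and above all old ones for 3, CG8112, Desat1 and mRpS30 (0.666% of all genes). In controls no member had all middle-aged arrays above all young ones (0.151% of all genes), and 1, mRpS30, had them above all old ones (1.01% of all genes). No member had all 4 separations (0% of all genes), and 11 had none. The rule used these arrays, so nothing is read from these counts.

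Day 20 was outside the rule, and its arrays give a view of the members that did not choose them. The day 20 mean exceeded the young mean for 14 of 16 members in Indy206 and 13 of 16 in controls, beside 4838 and 5620 of all 9904 genes. It exceeded the old mean for 12 members in Indy206 and 13 in controls, beside 5773 and 5636 of all genes. The young and old means are those the rule selected as low, so this is a description and carries no test. Day 20 lay above the middle-aged mean for 7 members in Indy206 and 5 in controls, between the windows for 7 and 10, and below both outer windows for 2 and 1.

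Within the young window, the question was whether the members already differed between days 10 and 5. By limma over all 42 arrays, 3 of 16 members were called between these days, all higher at day 10, beside 3.67% of all units (a gene, or a spot without one) called in either direction, 0.833% higher and 2.84% lower. CG18537 averaged 0.71 at day 10 and -0.35 at day 5, a difference of 1.06 ± 0.20 (SE; limma adjusted p = 0.0030). Its 4 day 10 arrays (0.84 and 0.65 in Indy206, 0.79 and 0.54 in controls) all lay above its 4 day 5 arrays (-0.34 and -0.26 in Indy206, -0.36 and -0.44 in controls). Sardh averaged 0.94 and 0.088 at these ages, a difference of 0.85 ± 0.19 (SE; limma adjusted p = 0.013), with day 10 arrays from 0.73 to 1.10 and day 5 arrays from -0.12 to 0.30 and no overlap. CG9988 averaged 1.05 at day 10 and -0.34 at day 5 (1.39 ± 0.33, SE; limma adjusted p = 0.020), and its day 10 arrays scattered from -0.087 to 1.85.

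Over the whole set, 14 of 16 members were higher at day 10 than at day 5, with a median difference of 0.37, beside a median of -0.014 and 46.0% above 0 over all units. With equal numbers of arrays at both ages in each genotype, their difference does not enter the young mean that the rule used. Still, a gene low at day 5 meets the rule more easily, so the count says nothing particular about the set. Obp56a differed by 0.89 ± 0.29 (SE) without passing (limma adjusted p = 0.075). The call of Sardh was lost without Indy206 day 5 replicate 2, Indy206 day 10 replicate 1 or control day 5 replicate 1 (limma adjusted p = 0.062 to 0.073). That of CG9988 was lost without Indy206 day 5 replicate 1, Indy206 day 10 replicate 1, control day 5 replicate 1 or 3, or control day 10 replicate 1 (limma adjusted p = 0.057 to 0.22). Only 1 member was called without Indy206 day 10 replicate 1 or without control day 5 replicate 1. The accessory gland median was also lower at day 10, from -3.04 to -2.04 in Indy206 and -4.03 to -3.02 in controls, than at day 5, from -2.05 to -1.93 in Indy206 and -1.79 to -1.49 in controls, with a slight overlap in Indy206. With the testis and accessory gland level as a covariate, 0 members were called in this comparison. The difference was then 0.77 for CG18537 (limma adjusted p = 0.155), 0.66 for Sardh (limma adjusted p = 0.344) and 0.89 for CG9988 (limma adjusted p = 0.515).

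Old and young flies are the 2 outer windows, which the rule does not set against each other but keeps similar by asking both to be low. Of the 16 members, 4 were called between them by limma, 2 higher and 2 lower in old flies, beside 21.4% of all units (9.13% higher and 12.2% lower). This share is near that of all units and is no result about the set. CG2656 averaged 0.33 in old and -0.29 in young flies and rose by 0.62 ± 0.16 (SE; limma adjusted p = 0.0059), a 1.54-fold difference. Its 12 old arrays ran from -0.12 to 1.01, and of its 8 young arrays 7 lay at or below -0.23. CG5676 averaged 0.45 in old and 0.086 in young flies and rose by 0.36 ± 0.12 (SE; limma adjusted p = 0.032), with ranges of 0.10 to 1.08 and -0.44 to 0.65 that overlapped.

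On the falling side, mRpS30 averaged -0.083 in old and 0.29 in young flies, a difference of -0.38 ± 0.071 (SE; limma adjusted p = 0.00022). Its 12 old arrays ran from -0.33 to 0.19 and its 8 young arrays from 0.015 to 0.68, and this call held under all 49 alternative settings. CG8112 averaged -0.15 in old and 0.51 in young flies, a difference of -0.66 ± 0.21 (SE; limma adjusted p = 0.027) averaged over the genotypes. Most of it came from Indy206, with means of 0.47 young and -0.67 old, beside 0.56 and 0.37 in controls. Old Indy206 arrays of CG8112 lay at or below 0.12 and the old control arrays at or above 0.020. Obp56a was higher in old flies by 0.45 ± 0.19 (SE) without passing (limma adjusted p = 0.082).

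The call of CG8112 was lost without Indy206 day 5 replicate 1, Indy206 day 10 replicate 1, Indy206 day 80 replicate 3 or control day 5 replicate 1 (limma adjusted p = 0.051 to 0.064). That of CG5676 was lost without any 1 of 6 arrays, namely Indy206 day 5 replicate 2, day 10 replicate 1 and day 70 replicate 2 and control day 5 replicate 1, day 10 replicate 2 and day 80 replicate 3 (limma adjusted p = 0.059 to 0.14). Without Indy206 day 10 replicate 1, or without control day 5 replicate 1, 2 members were called in place of 4. The accessory gland medians averaged -3.56 in old and -2.27 in young Indy206 flies and -3.21 in old and -2.58 in young controls. With the testis and accessory gland level as a covariate the calls of CG2656 (0.29, limma adjusted p = 0.39) and CG5676 (0.29, limma adjusted p = 0.29) were lost, and those of mRpS30 and CG8112 were kept. In bulk RNA of head and thorax, fewer cells of a type and less RNA per cell cannot be told apart.

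Within middle age, the question was whether the members were level from day 30 to day 50. By limma 1 of 16 was called, CG8112, beside 4.55% of all units (2.67% higher and 1.88% lower at day 50). Its day 50 arrays were 0.17, 0.32 and 1.59 in Indy206 and -0.066, 1.07 and 1.48 in controls, against day 30 arrays of 2.09, 2.32 and 2.47 in Indy206 and 0.66, 2.40 and 2.01 in controls. It averaged 0.76 at day 50 and 1.99 at day 30 and fell by 1.23 ± 0.27 on the log2 scale (SE; limma adjusted p = 0.0076), a 2.34-fold difference that stayed called under all 49 alternative settings. Indy206 arrays of the 2 ages did not overlap, and in controls day 30 replicate 1 lay among the day 50 arrays. hll followed at -0.87 ± 0.27 (SE) without passing (limma adjusted p = 0.057). A count of 2 members was reached without Indy206 day 30 replicate 3, Indy206 day 50 replicate 3, control day 30 replicate 1, control day 30 replicate 2 or control day 50 replicate 3.

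Between the old ages, limma called 0 members for day 80 minus day 70, beside 0% of all units, with 1 member and 1039 units at an unadjusted p under 0.05. The smallest p was that of mRpS30, whose day 80 arrays (-0.12, -0.011 and -0.33 in Indy206, -0.11, -0.27 and -0.23 in controls) lay on average 0.19 ± 0.090 (SE) below those of day 70 (-0.077, 0.19 and 0.013 in Indy206, 0.013, -0.037 and -0.039 in controls), with limma adjusted p = 0.88.

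**Figure D4:**
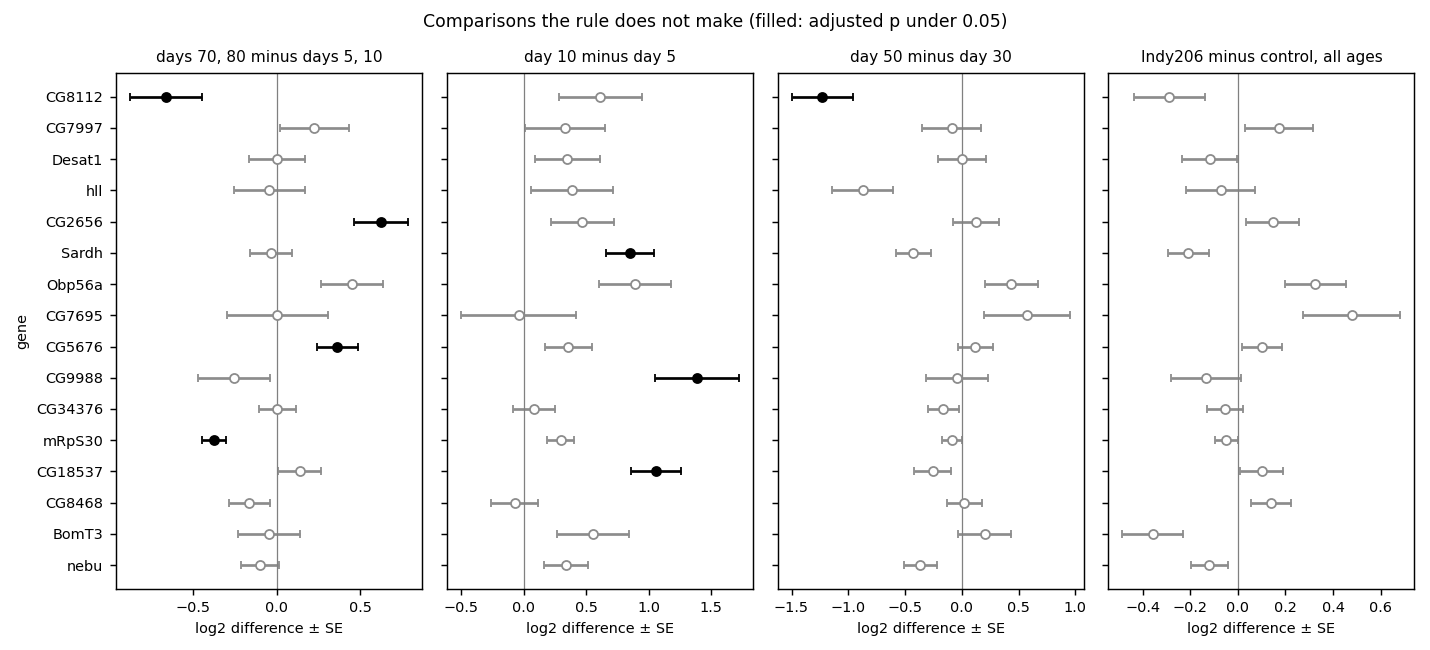
Log2 difference with its standard error (horizontal axis) for each member (vertical axis) in 4 comparisons that the rule does not make; filled points have a limma adjusted p under 0.05. Filled are CG8112, CG2656, CG5676 and mRpS30 for old minus young, Sardh, CG9988 and CG18537 for day 10 minus day 5, CG8112 for day 50 minus day 30, and none for Indy206 minus control.

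The genotypes were compared next, since a margin common to both says nothing about their difference in level. Averaged over the 8 ages, limma called 0 of 16 members between Indy206 and controls, beside 0.351% of all units (0.131% higher and 0.22% lower), with 4 members and 1258 units at an unadjusted p under 0.05. Differences ran from -0.36 for BomT3 to 0.48 for CG7695, with standard errors between 0.049 and 0.21. The smallest p was that of BomT3, which averaged lower in Indy206 by -0.36 ± 0.13 (SE; limma adjusted p = 0.45). Old BomT3 arrays ran from -1.52 to 0.30 in Indy206 and from -0.24 to 0.79 in controls and overlapped.

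In middle age itself, limma called 0 of 16 members (0.115% of all units, 0.0524% higher and 0.0629% lower; 1 member and 1063 units at an unadjusted p under 0.05). CG2656 had the smallest p there, at 0.38 ± 0.17 (SE; limma adjusted p = 0.85), with Indy206 arrays from 0.39 to 1.56 and control arrays from -0.76 to 1.14. In young flies limma called 0 members (0.00524% of all units; 0 members and 898 units at an unadjusted p under 0.05), with CG7997 at 0.45 ± 0.32 (SE; limma adjusted p = 0.98). At day 20 it called 0 members (0% of all units; 0 members and 588 units at an unadjusted p under 0.05), with Obp56a at 0.55 ± 0.37 (SE; limma adjusted p = 1.0).

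In old flies limma called 0 members (0.178% of all units, 0.0839% higher and 0.0944% lower; 2 members and 1388 units at an unadjusted p under 0.05), and CG8112 came nearest. Its old Indy206 arrays were 0.12, -0.91 and -0.57 at day 70 and -0.45, -0.91 and -1.29 at day 80, against 0.21, 0.020 and 0.61 at day 70 and 0.33, 0.26 and 0.81 at day 80 in controls. A single Indy206 array, day 70 replicate 1, reached into the control range. The difference was -1.04 ± 0.27 (SE), or 2.06-fold lower in Indy206, which did not pass (limma adjusted p = 0.17). It passed in 1 of 49 alternative settings, with the testis and accessory gland covariate, at -1.18 (limma adjusted p = 0.039). That covariate was chosen after seeing the data, and the limma adjusted p reached 0.49 in other settings. The old arrays of CG8112 also entered its selection.

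The rise and the fall of each genotype are the margins that chose the members, so their difference between genotypes is given as a description, with no test. With the ages weighing equally, CG2656 was higher in middle-aged than in young flies by 1.41 in Indy206 and by 0.70 in controls. For CG8112, old minus middle-aged was -2.05 in Indy206 and -0.87 in controls.

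Gene groups that hold a member were described by their counts. Of 60 measured mitochondrial ribosomal protein genes, mRpS30 was the 1 member, and 9 (15%) had all 4 margins above 0, beside 7.03% of all genes. The nearest to the rule after mRpS30 was mRpL16, with a smallest margin of 0.21. Between old and young flies 17 of the 60 fell and 2 rose by limma, with a median of -0.14 beside -0.022 for all units, of which 12.2% were called lower and 9.13% higher. Among those that fell were mRpL18 (-0.63 ± 0.095, SE; limma adjusted p = 9.5e-06) and mRpL23 (-0.57 ± 0.080, SE; limma adjusted p = 3.3e-06), both of the large subunit. The 2 that rose were mRpL13 (0.48) and mRpS29 (0.29).

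Of 33 measured odorant-binding protein genes, Obp56a was the 1 member and 5 (15.15%) had all 4 margins above 0. Between old and young flies 5 of the 33 fell and 2 rose by limma, beside 12.2% and 9.13% of all units, which is no result about this group. Obp56g fell the most, by 1.02 on the log2 scale (limma adjusted p = 5.2e-07), and Obp8a by 0.63 (limma adjusted p = 9.4e-06). Those that rose were Obp56d (0.56) and Obp19c (0.19), and Obp56a, at 0.45, did not pass.

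Of 19 measured genes of lipid storage and synthesis, Desat1 was the 1 member, and mdy, which makes triacylglycerol, was the 1 other with all 4 margins above 0 (smallest margin 0.029). CG8112 and hll were not on this list. Between old and young flies 4 of the 19 rose, the lipase gene bmm (0.43 ± 0.091, SE; limma adjusted p = 0.00090), the sterol carriers Npc2a (0.43) and Npc2b (0.30) and the regulator SREBP (0.26), beside 9.13% of all units. The lipid droplet gene Lsd-2 (-0.52), the lipocalin gene GLaz (-0.34) and the phosphatidate phosphatase gene Lpin (-0.26) fell, 3 of 19 beside 12.2% of all units. Desat1 itself differed by 0.0026 ± 0.17 between these ages (SE; limma adjusted p = 1.0). The remaining lists by function, of immune, detoxification, respiratory chain, clock, neuropeptide and reproductive genes among others, held 0 members. Their shares with all 4 margins above 0 ranged widely. They were 6 of 18 neuropeptide genes (33.33%) and 3 of 10 clock genes (30%). They were 4 of 79 cytochrome P450 genes (5.063%) and 0 of 59 genes of the respiratory chain and ATP synthase. Such a share is thus not particular to the groups that hold a member. The immune peptide gene BomT3 was not on these lists.

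The members varied together to different degrees. Over the 42 arrays the correlations of the 120 pairs had a median of 0.40 and ran from -0.041 (CG7695 with CG9988) to 0.81 (CG2656 with CG5676). CG8112 correlated at 0.73 with Sardh and at 0.73 with hll. The rule gives all members a shared course with age, so values within groups are the more telling description. After subtracting each group's mean the median was 0.24, with a range from -0.61 (CG2656 with nebu) to 0.78 (CG8112 with CG7997), and CG8112 kept 0.67 with hll and 0.65 with Sardh. All pairs share the same arrays and labelling, and no test was made.

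In the gene order of the assembly Release 6 plus ISO1 MT no member lay next to another. Of the 32 nearest measured genes on either side of the members, 0 were members and 1 had all 4 margins above 0. The correlation of members with the accessory gland median over the 42 arrays ran from -0.635 (CG18537) to 0.174 (nebu), and CG2656 stood at -0.539. The middle-aged accessory gland means, -3.11 in Indy206 and -3.10 in controls, lay below the young ones (-2.27 and -2.58) and above the old ones (-3.56 and -3.21). Haemocyte markers (5 of 5 measured) correlated with the members between 0.00026 (CG7695) and 0.594 (hll), with 0.559 for Sardh, 0.512 for CG9988 and 0.505 for CG18537. Their median ran from -0.0468 to 0.501 in young, 0.343 to 0.918 in middle-aged and 0.265 to 0.542 in old Indy206 flies, and from 0.371 to 0.815, 0.211 to 0.634 and 0.133 to 0.668 in controls of these windows. They were thus higher in middle-aged than in young flies on average in Indy206 (means 0.177 young, 0.536 middle-aged) but not in controls (0.542 young, 0.475 middle-aged).

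Fat body markers (3 of 5 measured) correlated with the members between -0.269 (CG18537) and 0.42 (nebu). Their median ran from -0.0826 to 0.629 in young, -1.38 to 0.942 in middle-aged and -0.388 to 0.0699 in old Indy206 flies, and from -0.012 to 0.267, 0.0574 to 0.828 and -0.666 to -0.0178 in controls. Control means were highest in middle age (0.12 young, 0.382 middle-aged, -0.259 old), and Indy206 means were highest in young flies among these windows (0.397 young, -0.125 middle-aged, -0.131 old). Other marker lists also varied with some members. Correlations ran from -0.508 (CG8468) to 0.0845 (CG18537) for glia and from -0.504 (CG2656) to 0.06 (mRpS30) for muscle. They ran from -0.56 (CG18537) to 0.00311 (CG8468) for testis and from -0.336 (CG18537) to 0.245 (CG8112) for midgut. For neurons they lay between -0.319 (CG7695) and 0.403 (nebu). The part of any marker list in the course of the members was not tested.

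Membership was stable for some genes and marginal for others. Of the 42 arrays, 37 enter the rule. Leaving out each of these in turn and applying the rule again kept CG8112 and CG7997 in 37 of 37 cases, CG2656 in 36, and Desat1, Obp56a and mRpS30 in 35. BomT3 was kept in 21 and CG9988 in 27. The set held between 11 and 21 genes in these repeats. With day 10 alone as the young window 14 genes met the rule, of which 5 were members, CG8112, CG7997, CG2656, Obp56a and CG5676. The smallest margin then turned negative for CG9988 (-0.44), Sardh (-0.13), CG18537 (-0.11) and BomT3 (-0.079), whose rise to middle age thus rested on day 5. In controls CG7997 averaged 0.91 in middle age, 0.81 at day 70 and 0.22 at day 80. Its control margin over old flies thus came mostly from day 80, and its smallest margin was as low as 0.10 under other settings.

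**Figure D5:**
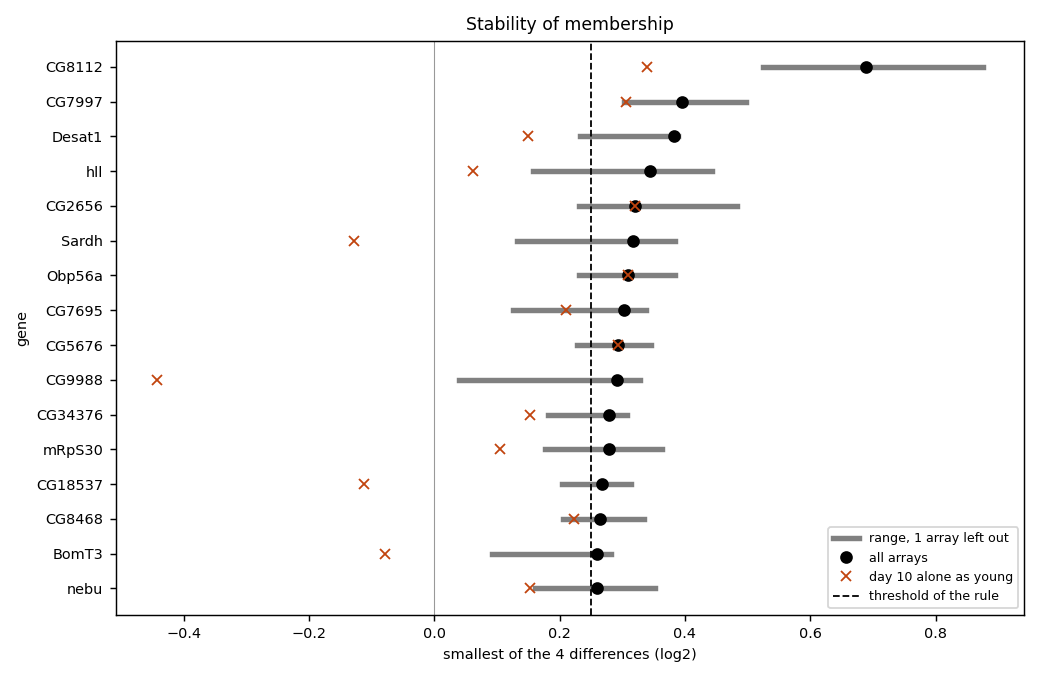
Smallest of the 4 margins in log2 units (horizontal axis) for each member (vertical axis); points use all arrays, bars span the repeats with 1 array left out, crosses take day 10 alone as the young window, and the dashed line is the threshold of 0.25. CG8112 and CG7997 stay above the line in every setting drawn here, and 4 crosses lie below 0.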

How the data were processed

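RNA of male heads and thoraces was measured on 42 arrays of 2 colours. For each array the authors deposited a log2 ratio per spot, made with limma, per the submitters' processing notes. Not given in the sources used here are its version, the background correction, the normalization, the log base and the direction; base 2 and sample over reference are likely, and every sign rests on that. Array medians lay between -0.0141 and 0.00193, so nothing was normalized again. No dye swap is listed, and a dye effect of a spot cancels between groups. Signal over background was not analysed here. Replicates are separate pools of 15 males.

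Of 20000 spots, 10827 had 1 gene in the platform annotation, 227 several and 8946 none paired here. Gene IDs of 10823 spots were found in RefSeq's table (Release 6 plus ISO1 MT), which gave the symbols. Spots of 1 gene were averaged, giving 9904 genes and 9173 other spots, 19077 units in all. Chosen with earlier results of these data known were the members, the gene lists and the contrasts.

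With limma 3.58.1 (R 4.3.3), lmFit and eBayes fitted 16 group means with 26 residual degrees of freedom. P-values were adjusted by Benjamini-Hochberg over all units in each contrast and called under 0.05. Comparisons the rule makes were not tested, and the planned interaction tests, which set its own margins against each other, are not reported. Named were members with a gene symbol, the 3 bare CG numbers of largest smallest margin, up to 6 called members per direction or that of smallest p, list members, the 3 members closest to the threshold and the 3 genes just below it. CG34376, and list genes that are no members, were named after their values were seen. The model was tested on simulated data. Python 3.11.15 with matplotlib 3.10.9 made the figures. Sequences of the genes were not used here.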

Additional observations from a re-analysis of the deposited data

Results flagged for a closer look

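In 8 of 96 cases, an age window of a member in a genotype held 1 array set apart from the others by a gap that chance gives in about 1 in 20 such windows. The windows pool ages, so a difference between ages can also open such a gap. Control day 30 replicate 1 accounted for 4 of the 8. On it Desat1 stood at -1.131, where the next middle-aged control array was at -0.11. CG2656 stood at -0.7616 on the same array (next 0.30), Obp56a at -1.357 (next 0.054) and CG7695 at -2.257 (next -0.18). The array also correlated less with the others than its sister arrays, and the set without it and control day 20 replicate 2 held 19 genes, 15 of them members.

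CG2656 stood apart on 2 further arrays, at 1.012 on Indy206 day 70 replicate 2 (next old array 0.42) and at 0.6281 on control day 10 replicate 1 (next young array -0.35). CG9988 was low at -0.3533 on Indy206 day 70 replicate 3 (next old array 0.14). BomT3 was high at 0.3404 on Indy206 day 10 replicate 1 (next young array -0.34). The causes were not tested.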

How the results depend on the processing

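Settings tried were quantile normalization, arrays scaled to a common spread, the median of spots, array quality weights, a replicate block and each array left out; a testis and accessory gland covariate and leaving out control day 30 replicate 1 with control day 20 replicate 2 were chosen after seeing the data. Counts of called members for genotype and day 80 minus day 70 were 0 in every setting, except 1 for old flies with the covariate (CG8112). For old minus young the count was 4, with 2 under the covariate and 2 to 5 with single arrays left out; CG8112 missed the threshold after quantile normalization (limma adjusted p = 0.077). For day 10 minus day 5 it was 3, with 7 after quantile normalization, 0 under the covariate and 1 to 4 with single arrays left out. For day 50 minus day 30 it was 1, with 3 under array weights, 2 without the 2 arrays set apart and 1 to 2 with single arrays left out. The set of 16 became 28 after quantile normalization (14 shared), 28 at a threshold of 0.2, 8 at 0.3, 1 at 0.5 and 9 with day 70 alone as old. With day 10 alone as young the smallest margin reversed for Sardh (-0.1286), CG9988 (-0.4419), CG18537 (-0.112) and BomT3 (-0.07924), which the missing day 5 arrays account for; other causes were not tested. Array weights do not enter the rule's means, so that setting was not run for the number of members.

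The replicate numbers were not taken as pairs, since some pairs of the same number correlated below 0.1 and the labels name no shared batch. Deviations from group means correlated at a median of 0.118 for 19 pairs of the same number (-0.348 to 0.615, 13 of them over 0.1) and -0.0917 for 37 of different numbers (10 over 0.1), so a shared factor in part of the arrays was not excluded. With the replicate block 3 members were called for old minus young, CG5676 missing the threshold (limma adjusted p = 0.055), 3 for day 10 minus day 5 and 1 for day 50 minus day 30. Groups of 2 or 3 arrays limit the precision of each age, every member rests on 1 spot, and signal over background was not analysed here.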

Other observations

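Turned round, the rule was met by 8 genes that were lowest in middle age in both genotypes, the muscle genes Act79B and Tm2 among them. The median of the muscle markers did not share this course and was lowest in old flies among these windows. Its means were 0.722 young, 0.189 middle-aged and 0.15 old in Indy206, and 0.657, 0.215 and 0.0264 in controls. Act79B, a muscle actin, had middle-aged means of -0.038 in Indy206 and -0.34 in controls, beside young means of 0.28 and 0.26 and old means of 0.44 and 0.20. Tm2, a tropomyosin, had middle-aged means of -0.33 in Indy206 and -0.38 in controls, beside young means of 0.015 and -0.070 and old means of 0.19 and 0.10. Orc1, a subunit of the origin recognition complex of DNA replication, had middle-aged means of -0.24 in Indy206 and -0.29 in controls, beside old means of 0.18 and 0.21. The 8 also include the cuticle protein gene Cpr62Bb and Mst57Db. These genes were chosen by the values given, so no test was made.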
